A study of Mus musculus with 24 samples.

Results

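Heart RNA was compared with RNA of brain, kidney, liver and testis on one-colour lncRNA microarrays, which carry probes for long noncoding RNAs (lncRNAs) and for mRNAs. The heart group was 3 arrays of the 24 in the series, and it was set against 12 arrays, 3 from each of the other tissues. All tissues came from male ICR mice aged 8 weeks, the 3 arrays of a tissue were biological replicates, and no treatment of the animals was stated. The remaining 9 arrays held RNA of cell lines (GC-1, GC-2 and F9) and were not part of the comparisons between tissues, except in a fit with slide as a block over all 24 arrays. The heart arrays were chosen by their labels alone, and each probe was expressed as the log2 of its intensity minus the log2 of the 75th percentile of that array, so that a level of 0 is the 75th percentile of the probes. A probe was called raised or lowered in heart where it differed at least 5-fold at a limma adjusted p of 0.05 or less.

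The heart is a muscle that beats without rest. Its cardiomyocytes are packed with sarcomeres, in which myosin thick filaments pull on actin thin filaments, and with mitochondria that burn fatty acids and lactate for ATP. Calcium entering through L-type channels starts each contraction. Cardiomyocytes share the organ with endothelial cells, fibroblasts, fat cells and blood. Many lncRNAs are made from only a few tissues, and a locus that encodes a protein can also give transcripts with no reading frame, so that most of the transcripts named below by a protein-coding gene are noncoding transcripts of that locus and not its mRNA. Many of them overlap exons of the gene in the sense direction. Their probes could also bind the mRNA, which was not tested.

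Only 3295 of the 60804 probes (5.42%) could be named here, from the parts of the study's supplementary tables at hand. Of these, 3035 were lncRNAs and 260 mRNAs, and 104 stood on the study's own list of lncRNAs specific to heart, which was picked on these same arrays and is therefore no independent evidence of their direction. All the other probes took part in every test and count without a name. The heart arrays held 25427 to 29824 probes well above background, against 18257 to 21349 on the liver arrays and 34999 to 37393 on the testis arrays. The 75th percentile intensity lay between 63.5 and 107 in heart, 30.7 and 49.8 in liver, and 305 and 384 in testis, so a dim probe had its floor at a log2 level of -1.61 to -0.98 in liver, -3.25 to -2.33 in heart and -4.87 to -4.44 in testis. The floor of -0.98 was that of liver replicate 1. On that array the 95th percentile of the negative controls was 13.6, against 2.97 to 4.97 on all others. Its scan date entry also differed from that of the other arrays on its slide. Heart replicate 1 shared a slide with replicate 1 of each other tissue, whereas heart replicates 2 and 3 lay on a slide with cell lines only. The 3 heart arrays correlated with each other at r = 0.972 to 0.979 over all probes.

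Heart differed from the mean of the other tissues by 2610 raised probes (4.29% of those tested) and 2315 lowered probes (3.81%). All 3 heart arrays lay above the 12 others for 1924 of the raised probes, while 5.91% of all probes did so. For 378 of the lowered probes the 3 heart arrays lay below all 12 others, against 1.2% of all probes. With the 75th percentile taken over the 14538 probes well above background on all 15 arrays, the split turned to 2134 raised and 2946 lowered, and the median difference over all probes moved from 0.21 to -0.01 on the log2 scale. Within the slide that held replicate 1 of all tissues, whose arrays were also part of the fit, 2319 of the 2610 raised probes and 2133 of the 2315 lowered probes differed at least 5-fold, without a test.

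Single tissues differed from heart to unequal extents. Kidney gave the fewest calls, with 2322 probes raised (3.82%) and 2634 lowered (4.33%) in heart. Brain gave 3221 raised (5.3%) and 3584 lowered (5.89%). Against liver 2685 were raised (4.42%) and 3665 lowered (6.03%), and this split reversed to 4129 raised and 3010 lowered after quantile normalization and to 3346 and 2734 with the percentile over well-measured probes. Testis was the farthest, with 11069 raised (18.2%) and 6987 lowered (11.5%), which became 6767 and 7506 after quantile normalization and 4513 and 9793 with the other percentile. The correlation of array levels gave the same order for kidney and testis, with r of 0.873 to 0.890 between heart and kidney arrays and 0.690 to 0.709 between heart and testis arrays. Of the 2610 raised probes, 2450 were also raised against testis and 148 against testis alone, whereas 1612 were raised against kidney.

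**Figure D1:**
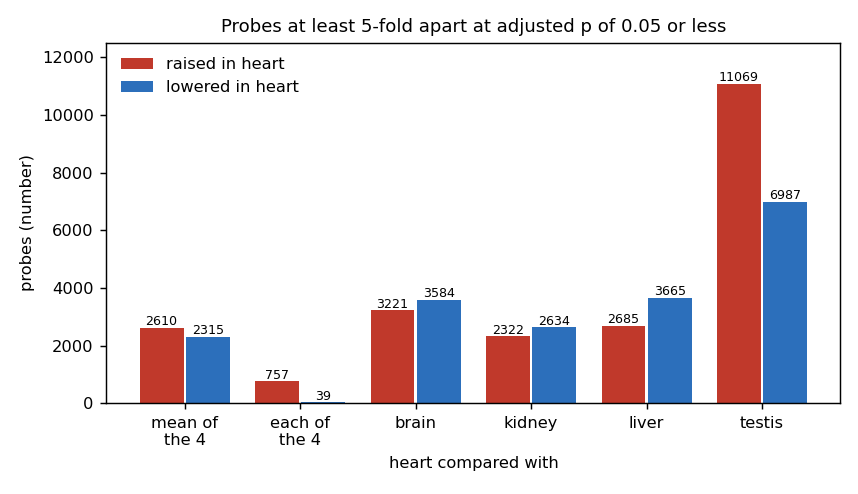
Number of probes (vertical axis) called raised (red) or lowered (blue) in heart against the mean of the 4 other tissues, against each of the 4 at once, and against single tissues. The bars for testis, 11069 and 6987, are the tallest, and only 39 probes were lowered against each of the 4.

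The heart marker transcripts Nrap, from a sarcomere gene, and Gm5532, a lncRNA, were the largest named differences against the mean. Nrap encodes a nebulin-related anchoring protein of the forming myofibril, and the gene lies at chr19:56320037-56390062 (GRCm38.p6). Its noncoding transcript had levels of 5.73, 4.81 and 6.04 on the heart arrays, and its highest value on the other 12 arrays was -2.24, on kidney replicate 3. No array outside the heart measured it well above background. It was therefore at least 368-fold higher in heart than the mean of the other tissues, with a fitted difference of 9.77 ± 0.49 (SE) on the log2 scale and a limma adjusted p of 7.73e-10. The "at least" here and below sets each tissue without a well-measured array at the dimmest signal that counted as well above background on its arrays. Against the tissue with the highest floor, liver, the bound was at least 113-fold.

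The lncRNA Gm5532 (chr1:155520173-155527111) gave closely spaced heart levels of 5.68, 5.93 and 5.92. Elsewhere its levels ran from -5.87 in testis replicate 1 to -1.58 in liver replicate 2, and it was well above background on 2 brain arrays and 2 testis arrays. It was at least 456-fold higher in heart than the mean of the others (fitted difference 9.59 ± 0.42, adjusted p = 2.32e-10). Heart and the other tissues did not come near each other for either transcript. Both transcripts were picked as heart markers on these arrays, so the values are a description.

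RefSeq windows of 250 bases before and 50 after the annotated start are shown for these loci and for 2 sarcomere genes that moved with them, to let the sequence near the start of heart-raised loci be seen; a noncoding transcript of a locus may start elsewhere. Capitals mark matches, on either strand, to the MEF2 motif, to the CArG box (the SRF motif) and to the M-CAT core CATTCC, which binds TEAD factors. TATAAA was searched too and occurred in none of the 4 windows.
Nrap (chr19:56389989-56390288, minus strand): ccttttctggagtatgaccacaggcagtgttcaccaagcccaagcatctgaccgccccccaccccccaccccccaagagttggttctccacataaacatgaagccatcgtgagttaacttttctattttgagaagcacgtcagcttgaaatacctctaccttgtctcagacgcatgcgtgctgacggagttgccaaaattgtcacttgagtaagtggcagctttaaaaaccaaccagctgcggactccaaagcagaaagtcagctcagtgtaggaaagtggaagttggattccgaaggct
Gm5532 (chr1:155527062-155527361, minus strand): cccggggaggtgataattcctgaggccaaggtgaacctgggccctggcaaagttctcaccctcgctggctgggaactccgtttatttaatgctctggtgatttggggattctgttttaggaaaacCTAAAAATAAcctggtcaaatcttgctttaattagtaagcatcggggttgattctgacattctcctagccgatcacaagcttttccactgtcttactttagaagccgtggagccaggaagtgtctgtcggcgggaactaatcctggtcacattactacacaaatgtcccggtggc
Myoz2 (chr3:123034938-123035237, minus strand): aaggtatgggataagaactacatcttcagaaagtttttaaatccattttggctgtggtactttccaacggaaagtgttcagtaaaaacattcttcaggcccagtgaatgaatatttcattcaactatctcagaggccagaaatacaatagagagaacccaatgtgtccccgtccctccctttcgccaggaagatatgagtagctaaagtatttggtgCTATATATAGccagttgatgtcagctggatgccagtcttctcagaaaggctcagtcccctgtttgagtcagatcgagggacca
Myl3 (chr9:110763428-110763727, plus strand): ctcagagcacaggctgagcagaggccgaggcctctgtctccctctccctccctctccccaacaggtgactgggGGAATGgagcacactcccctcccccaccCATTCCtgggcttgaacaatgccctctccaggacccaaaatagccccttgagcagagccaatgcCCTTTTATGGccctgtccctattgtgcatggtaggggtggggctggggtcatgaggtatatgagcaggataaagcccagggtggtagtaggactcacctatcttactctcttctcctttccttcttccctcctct
Gm5532 and Myoz2 each held a MEF2 match, Myl3 held a CArG box and a pair of CATTCC cores, and the Nrap window held none of the 4 motifs. Of the 107 symbols on the heart list or raised against each tissue, 38 had a window in RefSeq. A MEF2 match stood in 5 of the 38, namely Atf3, Gm15523, Gm5532, Myoz2 and Tnni3k (13.2%), and in 3.19% of all 32851 windows. CATTCC stood in 9 (23.7% against 14.7%), the CArG box in 2 (5.26% against 1.63%) and TATAAA in 3 (7.89% against 13.6%). These shares are descriptions of letters and were given no test.

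Raised against each of the 4 tissues, and well above background on all 3 heart arrays, were 757 probes (1.24%). In 747 of them the 3 heart arrays lay above all 12 others, a requirement that the call itself brings close. Liver was the nearest tissue for 314, kidney for 172, brain for 165 and testis for 106. In 519 of the 757 no liver array was well above background, and in 148 no array of any other tissue was. With such tissues placed at their bounds 525 probes were still at least 5-fold higher than each. Names were at hand for 86 of the 757, of which 81 came from the heart list and 5 did not. The other 671 had no name, and the widest gap to the nearest tissue, 14.83 on the log2 scale, belonged to an unnamed probe. The named transcripts are therefore not the strongest heart signals of the array.

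The named transcripts with the widest gap between heart and its nearest tissue were, after Nrap and Gm5532, mostly lncRNAs with no described function. Gm19277 (chr15:85149254-85156132) had heart levels of 4.90, 5.29 and 3.38 and no level above -3.17 elsewhere, which put it at least 209-fold above the mean of the others. C230038L03Rik ran from 3.91 to 4.30 on the heart arrays and stayed at or below -2.99 on the other arrays, at least 123-fold lower. The heart arrays lay close together for the second of these, while replicate 3 was the low one for Gm19277. Each of the pair was well above background on 1 brain array and 2 testis arrays and on none of kidney or liver. The same pattern, heart levels between 2.04 and 4.33 over others at or below -2.46, was found for Gm14492, AK085761, AK085954, AK085873 and AK052878, whose bounds against the mean ran from at least 43.5-fold for AK052878 to at least 99.7-fold for Gm14492.

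**Figure D2:**
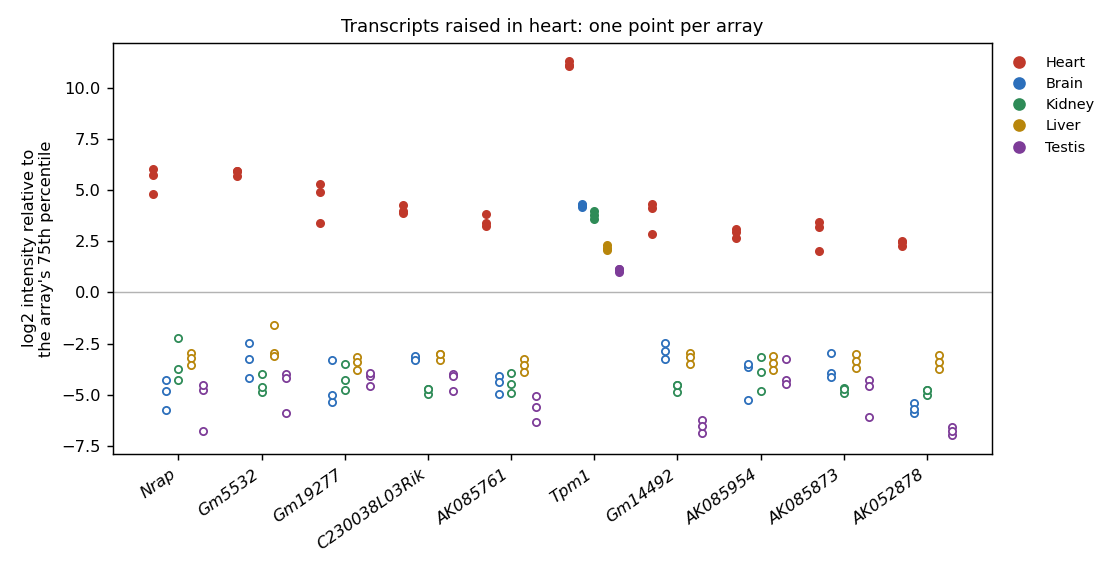
Level of each array (log2 intensity relative to the array's 75th percentile) for the 10 named transcripts with the widest gap between heart and the nearest other tissue. Points are single arrays, 3 per tissue; open points mark tissues in which fewer than 3 arrays were well above background, and the heart points lie above all others for every transcript.

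Over the whole heart list the levels were modest. The gaps were part of how the study picked the list on these arrays, and at the bounds 22 of the 104 stayed at least 5-fold above each tissue. The 104 transcripts, under 102 symbols, had mean heart levels from -1.74 to 5.84 with a median of -0.01, so that a middling member was about as bright as the 75th percentile of the array. All were well above background on the 3 heart arrays, and in no other tissue was any of them so on all 3 arrays. The study had required detection in heart and absence in the other tissues, so this is a description of its choice. Their differences from the mean of the other tissues ran from 2.77 for Gm15950 to 9.77 for Nrap with a median of 4.62, or 3.06 with unmeasured tissues at their bounds. Of the 104, 23 were not raised against each tissue, and all 23 missed the call against liver, where the floor was highest. RefSeq held 25 of them under protein-coding genes, 18 as lncRNAs and 4 as pseudogenes, and 57 had no RefSeq symbol.

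A transcript of Tpm1, the gene of alpha-tropomyosin, which winds along the thin filament, was the exception among these in being well above background on all 15 arrays and in standing outside the heart list. The noncoding transcript spans chr9:67022606-67049186 (GRCm38, minus strand) and overlaps exons of Tpm1 in the sense direction. Its levels were 11.09, 11.09 and 11.29 in heart, 4.33, 4.29 and 4.17 in brain, 3.78, 3.96 and 3.61 in kidney, 2.15, 2.32 and 2.10 in liver and 1.13, 1.02 and 1.17 in testis. Every heart array thus exceeded every other array, and the 5 tissues formed an order with no overlap between neighbours. Heart exceeded the mean of the others by 8.32 ± 0.16 (320-fold, adjusted p = 6.19e-14) and brain, the nearest, 119-fold. A probe of this kind could also bind the Tpm1 mRNA where their exons coincide, which was not tested.

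Named transcripts that were raised against each tissue without being on the heart list are shown by their probe, since the probe is what was measured and defines the part of the transcript that these values concern.
Tpm1: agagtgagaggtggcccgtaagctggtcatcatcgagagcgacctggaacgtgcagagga
Gm10336: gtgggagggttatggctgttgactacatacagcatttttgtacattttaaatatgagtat
AK206280: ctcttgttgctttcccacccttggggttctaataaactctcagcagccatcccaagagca
Jam2: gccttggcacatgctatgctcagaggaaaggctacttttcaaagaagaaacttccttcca
Gm10336 is an intergenic lncRNA at chr13:12182717-12186488. It had heart levels of 7.34, 6.57 and 7.51 and ran from 1.97 to 3.64 on the other arrays, a difference of 4.47 ± 0.22 from their mean (adjusted p = 8.6e-10). AK206280 lies within an intron of Fbln1, the gene of the matrix protein fibulin-1, at chr15:85251612-85251885 and 95480 bases from Gm19277. Its heart levels were 6.80, 6.69 and 6.94 against 0.63 to 3.25 elsewhere, 4.72 ± 0.17 above the mean (adjusted p = 2.91e-11). The Jam2 transcript comes from the gene of a junctional adhesion molecule of endothelium and reached 6.34, 6.33 and 6.28 in heart against 0.51 to 3.34 in the others (4.20 ± 0.17, adjusted p = 1.08e-10). All 3 were well above background on all 15 arrays, so these differences are no bounds. The fifth was AK008913, antisense within an intron of Gc, which was 2.81 above the mean.

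Outside the heart list 101 of 3191 named probes were raised against the mean (3.17%, against 4.29% of all probes), and a majority of these were pseudogenes. RefSeq classes 596 of the 3191 as pseudogenes or transcribed pseudogenes, and 53 of the 596 were raised (8.89%), against 48 of the other 2595 (1.85%). The named probes are the first rows of longer tables, so the shares hold for this slice of the array. None of the 205 raised named probes was an mRNA. The mRNA names at hand came from lists of testis mRNAs, and 37 of the 210 lowered named probes were mRNAs.

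Part of the raised pseudogene probes were not separate measurements. Among the 1829 probes with a sequence, 26 formed a group in which each shared a run of 20 or more bases with another member, and 25 of the 26 were raised in heart. They are 60-base probes for different loci, and 5 are printed so that their likeness can be seen. Capitals mark the longest run that each shares with the first.
Gm17068: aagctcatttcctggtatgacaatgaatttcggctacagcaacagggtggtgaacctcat
Gm13296: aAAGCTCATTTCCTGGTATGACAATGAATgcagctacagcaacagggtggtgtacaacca
Gm5760: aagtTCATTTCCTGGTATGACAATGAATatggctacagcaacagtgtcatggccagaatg
Gm7129: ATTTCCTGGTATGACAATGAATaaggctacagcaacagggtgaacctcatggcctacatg
Gm6441: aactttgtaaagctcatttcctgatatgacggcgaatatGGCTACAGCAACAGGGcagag
Across the 26 probes the difference between heart and the mean of the others was 2.30 to 2.79 with a median of 2.58 and an SD of only 0.11 between probes. Gm13296, with 2.30, was the one member just under the 5-fold threshold, and Gm6441 had the largest value. The percentile over well-measured probes shifts all differences alike, with the median over all probes going from 0.21 to -0.01. Members near the threshold, such as Gm17068 at 2.37, would then fall below 5-fold. The 25 calls and the pseudogene shares that include them thus depend on the scaling. Probes so alike cannot tell their loci from each other or from a parent gene of the same sequence, and the 25 calls are not 25 independent observations. All 26 were well above background on all 15 arrays. For Gm17068, within an intron of Gnaq on chromosome 19, the levels were 10.96, 11.09 and 11.51 in heart, 9.40 to 9.78 in brain, 9.88 to 10.55 in kidney, 9.35 to 9.45 in liver and 5.75 to 6.24 in testis.

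The group was high in heart mainly in relation to testis. The median difference was 5.46 from testis, 2.00 from liver, 1.66 from brain and 1.08 from kidney, and all 26 were called against testis while none was called against another tissue. Of the 76 raised probes outside both the heart list and this group, 17 were called against testis alone. A smaller pair of this kind, Gm4660 and Gm14299, rose by 2.94 and 3.21 and shared 21 bases, in capitals here.
Gm4660: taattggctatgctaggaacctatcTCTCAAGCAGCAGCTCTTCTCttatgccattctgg
Gm14299: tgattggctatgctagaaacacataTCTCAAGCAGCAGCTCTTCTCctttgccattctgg
With the group of 26 left out, 32 of 574 pseudogene probes were raised (5.57%).

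**Figure D3:**
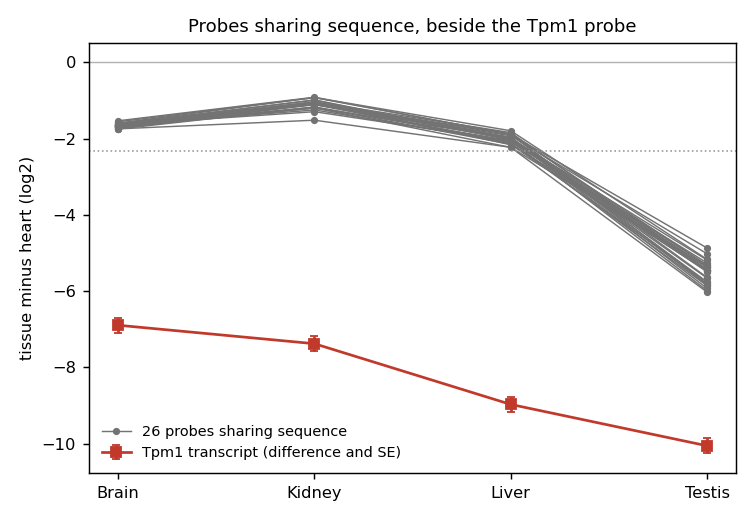
Difference of each tissue from heart (log2) for the 26 probes that share sequence (grey, one line per probe) and for the Tpm1 probe (red, bars give the SE). The grey lines run together and cross the dotted 5-fold line only at testis, while the Tpm1 probe lies beyond it in all 4 tissues.

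Among the largest other differences outside the heart list, heart was not the only tissue with a high level. AK008716, an intergenic transcript at chr5:91625188-91626743, had heart levels of 7.17, 6.47 and 6.67 but 4.49 to 4.91 in brain, 4.33-fold lower. Gm12384, classed as a pseudogene, gave 6.80, 6.42 and 7.12 in heart and 4.59 to 4.89 in kidney, 4.20-fold lower. AK156916, antisense to exons of Mef2c, the gene of a transcription factor of heart and brain, was raised by 3.25 over the mean with heart levels of 3.49, 3.43 and 3.70, yet brain reached 4.04 to 4.30. It was named for its locus after its values were seen.

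Of 10 loci of the sarcomere and actin filaments, 7 were raised (4.29% of all probes were) and none lowered, with a median difference of 4.81 over the list and 0.21 over all probes. In 6 of the 7 the transcript was on the heart list and had its name through it, so that its direction was fixed by that choice; the 4 other probes had a median of -1.25, and Tpm1 alone of them was raised. With tissues that lacked a well-measured array at their bounds, all 7 stayed at least 5-fold higher and the median was 2.94. Besides Nrap and Tpm1 these were Myoz2, for a Z-disc protein that binds calcineurin, Myl3, for the essential light chain of slow and ventricular myosin, Tnni3k, for a cardiac kinase, and the actin-binding Palld and Coro6. Myoz2 had heart levels of 1.96, 2.94 and 1.78 and none above -2.92 elsewhere, at least 38.2-fold higher. Myl3 gave -0.01, -0.02 and 0.00 in heart against others at or below -1.75, and was at least 8.12-fold higher. Tnni3k was at least 7.29-fold, Coro6 at least 6.88-fold and Palld at least 15.6-fold higher than the mean, although 1 liver array measured Palld at 0.08. All 7 were also raised against each single tissue by their fitted differences. For Myl3 the call against liver rested on values below the liver floor, which lay at -1.61 to -0.98. At the bounds, 22 of the 104 transcripts on the heart list stayed at least 5-fold above each tissue. The probes not called were those of Tpm3 (-1.85), Capzb (-1.79) and Actg1 (-0.71). After normexp background correction with an offset of 50, Nrap, Tpm1 and Myoz2 were still called (3 of the 7).

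Of 29 probes for transcripts of mitochondrial genes, none of them on the heart list, 4 were raised and none lowered, against 4.29% of all probes raised, and the median was 1.12. Their summed level, the log2 of the added relative intensities, was 14.01 to 14.41 on the heart arrays, 14.00 to 14.54 in liver and 13.73 to 13.78 in kidney, so heart and liver overlapped. The 4 were exonic sense transcripts. Mdh2, for malate dehydrogenase of the citric acid cycle, had heart levels of 7.19, 6.61 and 7.31 and exceeded the mean by 2.89 ± 0.22 (adjusted p = 7.96e-08). Etfa, for a subunit of the electron carrier of fatty acid oxidation, rose by 2.75, Ndufab1, for the mitochondrial acyl carrier protein, by 2.71, and Mrpl42, for a mitochondrial ribosome protein, by 3.07. In each of the 4 all heart arrays exceeded all others, yet none was 5-fold above kidney, which was nearest at 0.76 to 1.49 below heart. The 25 other probes ran from -1.99 for Atp5b to 2.10 for 1 of the Atpase6 probes.

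Of 12 loci of fuel metabolism 2 were raised and 1 lowered, with a median of 0.52. Over all probes 4.29% were raised and 3.81% lowered, with a median of 0.21. Ldhb, for the lactate dehydrogenase subunit that prevails in heart, gave 5.85, 5.46 and 6.20 in heart and 5.20 to 6.26 in kidney, so these overlapped. It exceeded the mean by 3.58 ± 0.37 (adjusted p = 1.54e-06), at least 136-fold over liver, where no array was well above background, and 22.8-fold over testis. Plin4, for a coat protein of lipid droplets, was at least 13.7-fold higher than the mean. Aldoc, for the brain form of aldolase, was lowered, with no heart array above background and brain at 3.72 ± 0.22 (SD, n = 3).

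The list of calcium handling and caveola loci held 4 raised probes among 10 and none lowered, where 4.29% of all probes were raised. All 4 were named through the heart list, which fixed their direction, and the 6 other probes had a median of -0.08 with none called. Ahnak, for a giant scaffold protein linked to the L-type channel, was at least 7.62-fold higher than the mean. Cav1, for the coat protein of caveolae, and Ehd4, for a membrane-remodelling ATPase, were at least 8.00-fold and 4.41-fold higher. The probe for Atp2a2, the calcium pump of the sarcoplasmic reticulum, differed by -0.13, and the list's median was 0.25. None of the 4 was called after normexp correction.

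The imprinted lncRNA Airn was raised, and it stood on the heart list, which fixed its direction. Airn is transcribed antisense to Igf2r from the paternal chromosome and silences genes beside it. Its heart levels were 0.59, 0.42 and -0.22 and its levels elsewhere at most -3.00, at least 10.7-fold higher (fitted difference 4.71 ± 0.37, adjusted p = 8.72e-08), with 1 brain array well above background. After normexp correction the difference was 1.62 and Airn was not called. It was the only 1 called of 18 probes for imprinted lncRNAs, where 4.29% of all probes were raised, and the 17 others had a median of -0.28. Of 19 probes for abundant nuclear lncRNAs and snoRNA hosts none was called, and they ran from -1.86 for a Gas5 probe to 2.27 for Neat1. None of 53 ribosomal protein probes was called (median 0.46), nor of 15 for cell division (median -0.91), a list that does not hold the lowered Cks2.

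**Figure D4:**
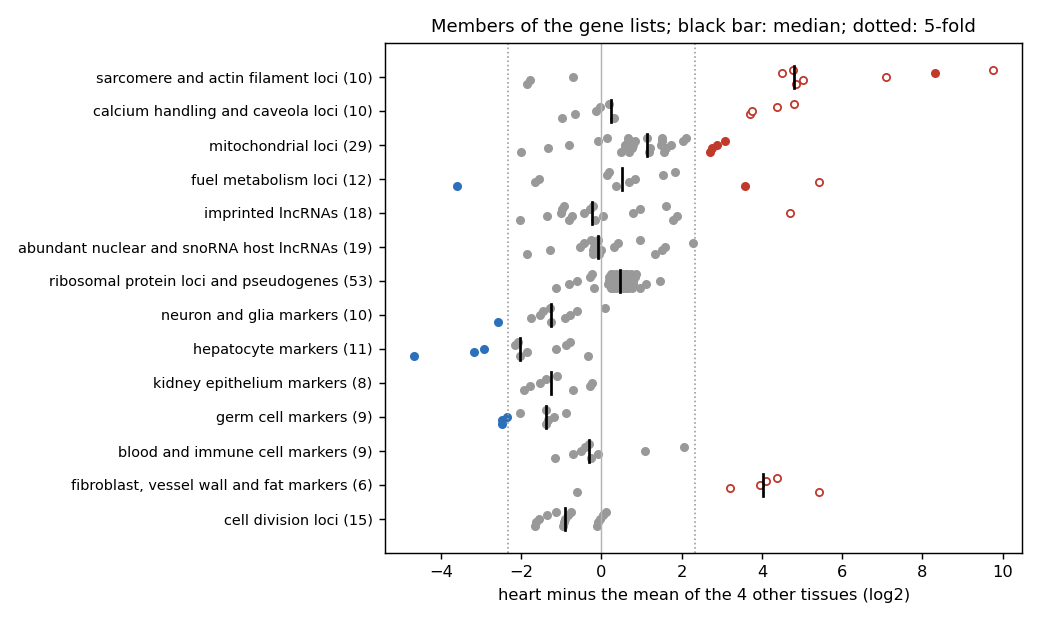
Difference between heart and the mean of the 4 other tissues (horizontal axis, log2) for each probe of the gene lists, with the number of probes in brackets. Red and blue mark raised and lowered probes, open points stand on the heart list, black bars are medians and dotted lines 5-fold. The sarcomere list has a median of 4.81 with 6 of its 10 probes open, and its probes outside the heart list have a median of -1.25. The list of fibroblast, vessel wall and fat markers has a median of 4.02 with 5 of 6 open, and its only probe outside the heart list, Col4a2, lies at -0.60.

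Markers of other cells were read to see what else the heart samples held. Of 6 markers of fibroblasts, vessel wall and fat, 5 were raised (Cav1, Plin4, Angptl2, Tnxa and Ccdc80), where 4.29% of all probes were. But all 5 were named through the heart list, which fixed their direction. The 1 marker outside it, Col4a2, differed by -0.60. With bounds the median was 2.78 and 4 of the 5 were at least 5-fold higher, and none was called after normexp correction. The summed level of the 6 was 3.47 to 4.30 on the heart arrays and 3.40 to 5.07 on those of brain. Of 9 blood and immune markers none was called. The globin pseudogene Hba-ps4 was the bright one, at 11.02, 11.98 and 11.67 in heart, 10.94 to 11.76 in liver and 5.72 to 6.22 in testis, and its part in the other results was not tested. In whole tissue, more cells of a type and more RNA per cell cannot be told apart.

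Markers of the compared tissues were low in heart. The 10 neuron and glia probes summed to -0.34 to 0.28 in heart against 8.02 to 8.18 in brain, and the myelin gene Mobp was lowered. None of these probes was raised or stood on the heart list, and their highest difference from the mean was 0.08. Gap43 is among them. Its transcript carries the identifier that the paper gives for its heart-specific lncRNA checked by PCR. The arrays did not show the heart excess that the paper reports for this transcript, and the reason was not tested. The 11 hepatocyte probes summed to 4.15 to 4.63 in heart against 11.96 to 12.97 in liver, the heart sum being mostly Kng1 at 4.09 to 4.61. Here 3 were lowered, from the major urinary protein loci Mup-ps18, Mup-ps12 and Mup11, and 6 were lowered after quantile normalization. The 8 kidney epithelium probes summed to at most -0.83 in heart against 5.31 to 5.51 in kidney, and none was called against the mean. Of the 9 germ cell probes 3 were lowered, Acr, Tcfl5 and Rnf17, and none of the 9 was well above background on more than 1 heart array. Over all probes 3.81% were lowered against the mean.

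Of the 210 lowered named probes, 165 were among the 642 named on testis lists and 14 among the 595 on the brain list. The liver list gave 5 of its 48 and the kidney list 2 of its 102, and 24 stood on none. Against testis alone 148 of the 210 were lowered. The share lowered was 6.37% of the named probes and 3.81% of all probes. Lowered against each tissue were 39 probes (0.0641%), and none of them had a name here.

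The named transcripts with the largest deficit in heart had 1 or more bright tissues elsewhere. For H2-Bl, a pseudogene of the class I histocompatibility genes, no heart array was well above background, while kidney gave 0.71, 0.65 and 1.64 and testis 0.60, 1.09 and 1.20. Heart was at least 13.0-fold below kidney and 12.7-fold below testis. The 3 liver arrays spread from -2.39 to 4.68, so the difference of -5.01 ± 0.94 from the mean (adjusted p = 0.000491) had a wide error, and it was -3.05 and no longer called with slide as a fixed block over all 24 arrays. AK015642, an intergenic transcript at chr7:16963223-16964605, was at 6.21 to 6.45 in brain and 2.14 to 2.31 in testis and was at least 524-fold and 30.6-fold lower in heart. In kidney and liver it was not above background either.

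Cks2 was the one lowered transcript of these with a measured level in heart. It comes from the gene of a subunit of cyclin-dependent kinases. Its levels were -0.87, -0.98 and -1.51 in heart and -0.38, -0.77 and -0.82 in brain, but 4.71 to 4.74 in kidney, 3.95 to 4.50 in liver and 4.73 to 4.99 in testis. Heart was 57.2-fold below kidney, 38.8-fold below liver and 64.4-fold below testis, and it did not differ from brain at the threshold (adjusted p = 0.127, 1.37-fold). Sstr2, for a somatostatin receptor, was at least 141-fold below brain. The transcript 4931430N09Rik runs antisense within an intron of Cacna1c, the gene of the cardiac L-type calcium channel, and was at least 96.1-fold below brain and 15.8-fold below testis, with no heart array above background. Mup-ps18 was at 11.29, 12.56 and 12.03 in liver and differed by -4.67 from the mean, while the 9 arrays of brain, kidney and testis lay between -6.81 and -2.04.

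**Figure D5:**
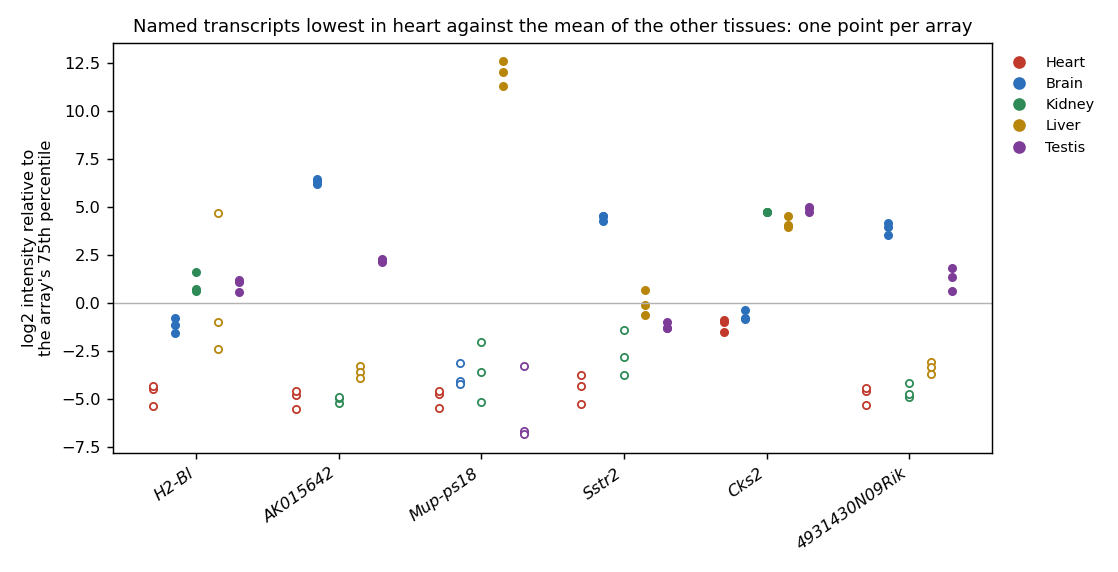
Level of each array (log2 intensity relative to the array's 75th percentile) for the 6 named transcripts outside the heart list with the largest deficit in heart. Open points mark tissues with fewer than 3 arrays well above background; Cks2 is the only one with filled heart points, and the 3 liver points of H2-Bl are far apart.

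The 39 probes lowered against each tissue were called by their fitted differences, while all 12 other arrays measured them. In 13 of them no heart array was well above background, and with heart at its floor 6 of the 13 were at least 5-fold below every other tissue and 7 were not. In all 39 the 3 heart arrays lay below the 12 others, as the call nearly requires, and 19 of them were still well above background on all 3 heart arrays. Brain was nearest for 15, testis for 12, kidney for 7 and liver for 5. The unnamed probe ASMM10P033428 showed the widest gap, with heart at -3.73, -3.84 and -4.38, none well above background, brain at 2.17 to 2.37, testis at 2.14 to 2.95, liver at 5.89 to 6.42 and kidney at 10.23 to 10.37. ASMM10P033427 came next, with heart at -3.98, -4.60 and -4.41 and no other array below 1.37. Heart arrays and other arrays were far apart for both.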

How the data were processed

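RNA of each sample was labelled with Cy3 and hybridized to 1 array, and the arrays were scanned and read with Feature Extraction 11.5.1.1. The labels name Trizol for RNA extraction and the methods a column kit. The deposited scanner files give, per the file headers, a background-subtracted processed intensity for each of 62243 spots, which was used here, besides median signals and detection flags; the deposited value table held the same intensities to within 0.000228 of their value. The normalized values of the study were not used. Control spots were left out, each remaining probe had 1 spot per array, and 73 spots flagged as outliers on the tissue arrays were treated as missing. The log2 intensity minus the log2 of the array's 75th percentile was taken over 60804 probes. No spot was saturated.

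The 15 tissue arrays were fitted with limma 3.58.1 (lmFit and eBayes, R 4.3.3), 1 coefficient per tissue and no block, and p-values were adjusted by Benjamini-Hochberg over all probes. The ± after a difference is its standard error. "Raised against each" also required a signal well above background on all 3 heart arrays, and "lowered against each" on the 12 others. Probes were named through the study's supplementary tables (in part at hand), and genes through RefSeq (GRCm38.p6), which also gave the promoter windows; transcript positions are those of the tables. Named in the text are Nrap and Gm5532, the 10 named probes with the widest gap to the nearest tissue, the 6 largest and 6 smallest differences among called probes outside the heart list, and called members of the gene lists, of which 1 is not reported here. The members and lists were chosen with earlier results of these data known. The scripts were tested on simulated data. The number of arrays, 3 per tissue, limits the precision. The p-values rest on an estimate of the spread between samples within tissues that all tissues share, so a tissue with a wider spread has no estimate of its own.

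Alternatives were quantile normalization, another percentile, normexp, a filter on dim probes, replicate and slide as blocks, array weights, the value table, and leaving out each array.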

Additional observations from a re-analysis of the deposited data

Results flagged for a closer look

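The cell-line arrays, which entered no comparison above, showed some of the named heart-raised transcripts well above background on all 3 arrays of a line and at a mean level above that of every one of the 12 arrays of the other tissues. The lines were F9, a mouse embryonal carcinoma line, and GC-1 and GC-2, lines derived from mouse male germ cells. The Tpm1 transcript had a mean level of 6.84 in GC-1 and 7.09 in GC-2, against 11.16 in heart. AK206280 reached 5.55 in F9 and 7.71 in GC-1, the latter above its heart mean of 6.81. Gm10336 had a mean of 4.97 in F9, while GC-1 gave 3.70 and GC-2 gave 4.07, against 7.14 in heart. Jam2 was at 7.16 in F9, above its heart mean of 6.32, and at 3.60 in GC-1. Gm12384 was at 5.16 in GC-2. None of the other transcripts named for the widest gap, all from the heart list, met this criterion in any line. Of the 757 probes raised against each tissue, 201 were well above background on all 3 arrays of F9, 290 of GC-1 and 285 of GC-2, and 14, 29 and 28 of these were at or above their heart level. These levels were not tested against heart. Of all 60804 probes, single arrays held 23525 to 27537 well above background in F9, 26876 to 27578 in GC-1 and 26120 to 28655 in GC-2. The share of all probes above background on all 3 arrays of a line was not counted. With 3 arrays per tissue no test for single outlying samples was made.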

How the results depend on the processing

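After normexp background correction with an offset of 50, run on median signals because the scanner files hold no mean signals (the planned version was not run, and this one was added after seeing the data), 896 probes were raised and 401 lowered against the mean, 326 raised and 12 lowered against each tissue, 960 and 1297 against brain, 658 and 1095 against kidney, 1083 and 1130 against liver, and 3147 and 3647 against testis. Of these, 896 and 393 were among the probes called as reported for the mean, 321 and 12 for each tissue. The gene lists kept 8 raised and 1 lowered probe, and 23 of the 47 named results were no longer called, all in the same direction. This setting changed the signal, the background method and the offset together, and which of them mattered was not tested. Quantile normalization gave 4129 raised against liver and 6767 against testis, the percentile over well-measured probes 4513 raised against testis, and slide as a fixed block over 15 arrays 5542 lowered against liver; the cause was not tested. The hepatocyte markers lowered rose from 3 to 6 after quantile normalization. The other counts of probes over the whole array stayed within 1.5 times, with 2444 raised and 2315 lowered against the mean after the filter on dim probes. At the bounds set by each tissue's floor, 1888 of the 2610 raised probes and 82 of the 104 on the heart list were still at least 5-fold higher than the mean, and 22 of the 104 were so against each tissue.

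Leaving out each array gave 2595 to 2726 raised and 2017 to 2607 lowered against the mean, and 747 to 786 and 37 to 46 against each, with 10631 to 13022 raised against testis and 3159 to 4385 lowered against liver. Rnf17, Tcfl5 and Mobp lost their calls without heart replicate 1, at -2.10, -2.17 and -2.31; Rnf17 also did so without brain replicate 2 (-2.31), liver replicate 1 (-2.31) or testis replicate 1 (-2.32) and with array weights (-2.20), Tcfl5 without brain replicate 3 (-2.13) and with slide as a fixed block (-2.62 over 15 arrays, -2.28 over 24). H2-Bl lost its call with slide as a block over 24 arrays. Same-numbered samples deviated together at r of -0.139 to 0.226, with a median of 0.045, against -0.013 for different numbers. These values cannot show whether same-numbered samples came from the same animal, and the tissue samples of replicate 1 also shared a slide. With a replicate block the counts were 2610, 2314, 757 and 39. No named result reversed under any of these settings. Probes without a name and transcripts below background could not be described.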
